A study of Homo sapiens with 24 samples.

Results

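The rows described here are 8 cytosolic ribosomal protein genes, RPL5, RPL11, RPL22 and RPS27 on chromosome 1 and RPL10, RPL36A, RPL39 and RPS4X on chromosome X. They were picked by gene symbol among the 11579 rows of the expression table, each symbol naming 1 row, and restricted to the chromosomes on which the row labels look correct. RNA was measured in HEK293, an established human embryonic kidney cell line, by sequencing tags from the 3' ends of polyadenylated transcripts. The cells were untransfected or transiently transfected with an empty flag vector (empty vector), with flag-tagged wild type EVI1 (EVI1-WT) or with EVI1-AQA, in which alanines replace the serines of an SQS motif near the carboxy terminus, where the kinase ATM phosphorylates EVI1. The plasmids use a CMV promoter. The labels also describe luciferase reporter plasmids without saying which libraries held them. The authors list those for their reporter assays and name only the flag plasmids for the sequenced cells. The share of cells that took the plasmids up is not given in the sources used here. Each of these 4 states was left untreated or exposed to 150 uM H2O2 for 8 h, an oxidant used to cause genotoxic stress. This gives 8 groups of 3 libraries, 24 in all, and each group has 1 library in each of 3 batches.

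Ribosomal proteins are the structural parts of the ribosome, RPL proteins in the large subunit and RPS proteins in the small subunit, and cells make them in near equal numbers. Their mRNAs usually begin with a cytidine followed by a run of pyrimidines, the terminal oligopyrimidine (TOP) tract, through which growth signals control their translation together. When ribosome assembly is disturbed, free RPL5 and RPL11, bound to 5S rRNA, restrain the ubiquitin ligase that degrades p53, which links these proteins to the stress response.

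The starts of the genes are shown because the TOP tract is the sequence feature that the family shares. Each run gives the 15 bases before and the first 15 bases from a start site in the RefSeq promoter table on GRCh38.p14, 5' to 3' on the gene's own strand. Capitals mark a C at the start site and the unbroken pyrimidines (C or T) that follow it, where at least 4 do.
RPL11: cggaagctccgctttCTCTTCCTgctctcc
RPL22: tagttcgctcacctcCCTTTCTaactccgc
RPS27: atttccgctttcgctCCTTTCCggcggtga
RPL10: caggcggaggagcgcCTCTTTCCCTTCggt
RPL36A: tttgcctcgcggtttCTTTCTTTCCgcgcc
RPL39: ttcttccgccagcttCCCTCCTCTTCCTTT
RPS4X: gcagtctccagccccaatttctacgcgcac

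These windows lie at chr1:23691791-23691820 (RPL11, plus strand), chr1:6199581-6199610 (RPL22, minus strand), chr1:153990747-153990776 (RPS27, plus strand), chrX:154398362-154398391 (RPL10, plus strand), chrX:101390996-101391025 (RPL36A, plus strand), chrX:119791616-119791645 (RPL39, minus strand) and chrX:72277234-72277263 (RPS4X, minus strand). Of the 7 members with an entry in the table, 6 had a tract at a listed start site. RPL11 had it at 1 of 2 listed start sites and RPL10 at 1 of 3, and those are the ones shown. The tract of RPL39 runs for 19 bases and continues past the window, whereas that of RPL22 and RPS27 is 7 bases long. The RPS4X entry has no such run directly at its listed start. RPL5 was not matched. Among all 27305 genes with an entry, 5.14% have the tract at a listed start, and among the 61 of them named RPL or RPS 68.9% do. Only this strand was searched, and a match of letters is a description and shows no control.

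All 8 genes are protein coding in GENCODE v44 on GRCh38, a later annotation than the one the authors used. RPL5 lies at chr1:92832013-92841924 (plus strand), RPL11 at chr1:23691742-23696835 (plus), RPL22 at chr1:6185020-6209389 (minus) and RPS27 at chr1:153990762-153992155 (plus). RPL10 lies at chrX:154389955-154409168 (plus), RPL36A at chrX:101390824-101396155 (plus), RPL39 at chrX:119786504-119791630 (minus) and RPS4X at chrX:72255679-72277248 (minus). Their canonical transcripts range from 352 bases (RPS27) and 390 bases (RPL39) to 2164 bases (RPL10). RPL5 overlaps DIPK1A, SNORA66 and SNORD21, RPL22 overlaps RNF207, RPL10 overlaps DNASE1L1 and SNORA70, and RPL39 overlaps SNORA69. RPL36A overlaps GLA and the read-through gene RPL36A-HNRNPH2, and RPS4X overlaps PIN4. Each member also has processed copies in the genome, from 4 annotated pseudogenes of RPL11 to 52 of RPL36A, so reads could have been divided between a gene and its copies or an overlapping gene, and the values are uncertain to that extent.

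The deposited values are log2 expression values that have a mean of 0 for every row within each batch of 8 libraries. They therefore give differences between libraries of a batch and no absolute level, the number of reads per library is unknown, and levels cannot be compared between genes. Over all rows, replicates of a group correlated between -0.0639 and 0.538. The row labels were checked by the kind of gene that carries a row. On chromosome 1, 50.7% of coding genes and 2.39% of other genes have a row, and on chromosome X 43.1% and 2.46%. On chromosomes 2 to 22 the shares are 19.3% and 16.4%, so that coding genes are hardly preferred there. Within 3 Mb on either side of each member the share of coding genes with a row was between 39.8% (RPL10) and 64.9% (RPL5), and that of other genes between 1.11% and 5.19%. These shares count which genes have a row and use no expression value. They therefore cannot show that a member's label belongs to its values.

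Libraries at odds with their labels were looked for before the results. The row labelled CACNB3, singled out after its values were seen, separates EVI1-transfected from other libraries by its log2 value in every untreated group. Of the 12 H2O2 libraries, 3 depart from the rest of their state in this row, namely empty vector replicate 2 (4.36), EVI1-WT replicate 2 (-4.38) and EVI1-AQA replicate 1 (-2.60). All libraries were kept under their labels, and calls of members that change without these 3 are given both ways. A further library, untransfected and untreated replicate 3, had the lowest of all 24 values for 4 of the 8 members, RPS27 (-2.17), RPL39 (-0.70), RPL22 (-0.48) and RPL11 (-0.36). The same library was above its batch mean for RPL10 (0.35), RPS4X (0.26) and RPL5 (0.20). Because this was noticed in the data, leaving it out is an alternative added afterwards.

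After H2O2, the RNA of 2 of the 8 members rose, RPL36A by 0.36 on the log2 scale (1.28-fold) and RPL39 by 0.34 (1.26-fold), averaged over the 4 transfection states. RPL36A and RPL39 are both small proteins of the large subunit. The other 6 members did not pass the test, and their log2 differences lay between -0.11 (RPL10) and 0.19 (RPS27). That of RPS27 was 0.0042 without untransfected, untreated replicate 3. The comparison asks whether oxidative stress moved these transcripts in either direction. In such bulk samples, fewer cells that hold an RNA and less of it per cell cannot be told apart.

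RPL36A values in the 12 untreated libraries had a lowest of -0.53, a median of -0.24 and a highest of 0.22. In the 12 H2O2 libraries they were -0.24, 0.24 and 0.62. The ranges overlap, but 11 of the 12 same-batch pairs were higher with H2O2, the exception being untransfected cells in batch 1. In empty vector cells the values were 0.20, -0.53 and -0.14 untreated against 0.31, 0.32 and 0.27 with H2O2 (batches 1 to 3), and these do not overlap. In EVI1-AQA cells they were -0.26, -0.26 and -0.18 against -0.12, 0.45 and 0.62, again without overlap. In EVI1-WT cells they were -0.39, -0.04 and -0.24 against -0.09, 0.04 and 0.22, and in untransfected cells 0.22, -0.24 and -0.30 against 0.13, 0.26 and -0.24, and both of these overlap. The difference was 0.36 ± 0.10 (SE), with an adjusted p of 0.0155 by limma (Benjamini-Hochberg over all rows, two-sided), and 0.0301 with the batch as a replicate block. The fit without the block does not subtract the degrees of freedom that the centring within batches used, so its p-values are somewhat too small, and those with the block stand beside them where a call changes. By batch the mean difference over the states was 0.12, 0.53 and 0.43.

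RPL39 values ran from -0.70 through a median of -0.11 to 0.10 in the 12 untreated libraries, and from -0.17 through 0.17 to 0.48 in the 12 H2O2 libraries. Here too 11 of 12 same-batch pairs were higher with H2O2, the exception being EVI1-AQA in batch 2. Empty vector cells had 0.10, -0.31 and -0.13 untreated against 0.27, 0.34 and 0.37 with H2O2, and EVI1-WT cells had -0.25, -0.37 and -0.10 against 0.01, 0.22 and 0.48. Neither of these pairs of groups overlaps. Untransfected cells had 0.02, -0.01 and -0.70 against 0.12, 0.38 and -0.09, and EVI1-AQA cells had -0.25, -0.08 and 0.04 against -0.02, -0.17 and 0.12, with overlap in both. The difference was 0.34 ± 0.09 (SE), with an adjusted p of 0.0128, and 0.0263 with the replicate block. By batch it was 0.19, 0.39 and 0.44.

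Among all rows 8.9% were called higher and 7.63% lower in this comparison, and 6.62% and 5.65% with the replicate block, so 2 of 8 members called higher and 0 lower stands against that background. The median log2 difference was 0.04 over the members and 0.0016 over all rows. Each call was lost when certain replicates were left out. Without replicate 1 RPL36A alone was called (adjusted p 0.0206, and 0.0615 for RPL39), without replicate 2 neither was (0.205 and 0.124), and without replicate 3 RPL39 alone was (0.0492, and 0.119 for RPL36A). Without the 3 libraries at odds in the row labelled CACNB3 the differences were 0.41 for RPL36A and 0.34 for RPL39 (adjusted p 0.0123 and 0.0396).

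RPL36A and RPL39 have short transcripts (761 and 390 bases), and the relation of value to transcript length also differed between treatments in batches 2 and 3. Spearman's rho between value and canonical transcript length over the 1415 coding rows on chromosomes 1 and X had a median of 0.05 in untreated libraries (-0.07 to 0.18) and of -0.03 in H2O2 libraries (-0.22 to 0.15). In batch 1 the order was the other way, with medians of -0.03 untreated and 0.02 with H2O2. The 41 coding rows there with transcripts of at most 800 bases, a list drawn up after the values were seen, had 3 rows called higher and 1 lower. The shares over all rows were 8.9% and 7.63%. Once the members were taken out, the counts were 1 and 1 of 38 rows (median log2 difference 0.03). Of these 38 rows 26 had a positive difference, against 5833 of all 11579 rows. RPS27, whose transcript is the shortest of the 8, was not called. The part of transcript length in the 2 calls was not tested.

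Within single states no member passed at an adjusted p under 0.05, in any of the 12 comparisons between 2 groups, where 0.43% of all row tests did. At an unadjusted p under 0.05, the counts for H2O2 were 0 of 8 in untransfected cells (15.4% of all rows), 3 in empty vector cells (17.5%), 1 in EVI1-WT cells (14.7%) and 1 in EVI1-AQA cells (17.7%). These shares are no greater than the background except in empty vector cells, where the 3 were RPL36A (0.46), RPL39 (0.44) and RPL10 (-0.31). In EVI1-WT cells it was RPL39 (0.48), and in EVI1-AQA cells RPL36A (0.55). With the replicate block RPL10 in empty vector cells no longer passed (unadjusted limma p 0.0605). Without the 3 libraries at odds, RPL39 (0.0562) and RPL10 (0.0934) did not pass there.

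As a mean over the 3 plasmids, transfected cells had less RPL5 and RPS4X RNA than untransfected cells. Empty vector alone did not differ from untransfected cells at an unadjusted limma p under 0.05 for either gene, in either treatment. Averaged over both treatments, RPL5 fell by 0.19 on the log2 scale and RPS4X, a protein of the small subunit encoded on the X chromosome, fell by 0.22. Both calls ended when the batch was taken as a replicate block. The other 6 members were not called, with log2 differences from -0.17 (RPL10) to 0.36 (RPS27).

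RPL5 values in the 6 untransfected libraries ran from -0.07 through a median of 0.17 to 0.25, and in the 18 transfected libraries from -0.19 through -0.06 to 0.24. In untreated untransfected cells they were 0.24, 0.14 and 0.20. In the other untreated groups they were 0.24, -0.11 and 0.04 (empty vector), -0.06, -0.09 and -0.16 (EVI1-WT) and -0.16, -0.14 and -0.07 (EVI1-AQA). All untreated EVI1 libraries thus lay below all untreated untransfected ones, whereas empty vector libraries overlapped with both. With H2O2 the untransfected values were 0.11, 0.25 and -0.07 and overlapped with the transfected ones, which ran from -0.19 to 0.12. The difference was -0.19 ± 0.07 (SE), with an adjusted limma p of 0.0416, and 0.0755 with the replicate block.

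RPS4X values ran from -0.10 through 0.21 to 0.28 in the 6 untransfected libraries and from -0.21 through -0.08 to 0.22 in the 18 transfected ones. The untreated untransfected libraries had 0.28, 0.18 and 0.26, while all 6 untreated EVI1 libraries lay between -0.21 and -0.11. Untreated empty vector libraries had 0.22, -0.15 and -0.05 and overlapped with both. With H2O2 the untransfected values were 0.12, 0.24 and -0.10 and overlapped with the transfected ones, which ran from -0.20 to 0.19. The difference was -0.22 ± 0.07 (SE), with an adjusted limma p of 0.0307, and 0.0582 with the replicate block.

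For both genes the difference was negative in each batch, at -0.23, -0.26 and -0.08 for RPL5 and -0.27, -0.28 and -0.10 for RPS4X. The mean of the plasmids was below untransfected cells in 5 of the 6 comparisons of a batch and a treatment. Among all rows 10.9% were called higher and 10.5% lower, and 8.24% and 7.86% with the replicate block, where 0 members were called. The counts of 2 lower and 0 higher of 8 stand against those shares. Neither gene was called after quantile normalization (adjusted p 0.0716 for RPL5 and 0.0576 for RPS4X), without the 3 libraries named above (0.0722 and 0.0553), without untransfected, untreated replicate 3 (0.0663 and 0.0553), or with any batch left out.

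RPS27, a zinc-binding protein of the small subunit, had the largest estimate for transfection (0.36 ± 0.25, SE), with an adjusted p of 0.318. It rests on untransfected, untreated replicate 3, without which it was -0.0027. By batch the RPS27 difference was -0.31, -0.16 and 1.55.

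Empty vector against untransfected cells, which asks what transfection alone does, gave 0 of 8 members at an unadjusted limma p under 0.05 in untreated cells (14.7% of all rows) and 0 with H2O2 (11%). The log2 differences were -0.23 to 0.17 and -0.29 to 0.25. EVI1-WT against empty vector gave 2 in untreated cells (7.09%) and 0 with H2O2 (4.67%), and EVI1-AQA against empty vector gave 2 (14.9%) and 0 (9.15%). The direct comparison of EVI1-AQA with EVI1-WT, which asks what the loss of the phosphorylation sites changes, gave 0 in untreated cells (4.77%) and 0 with H2O2 (10.5%), with log2 differences of -0.23 to 0.31 and -0.76 to 0.26. The comparisons with empty vector share the same 3 control libraries, so their agreement is no separate evidence.

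The members behind these counts were RPS27 and RPL10, in opposite directions in untreated cells. As background, RPL10 is a protein of the large subunit that is added late in assembly. Its values were 0.51, 0.27 and 0.05 with empty vector, 0.06, 0.03 and -0.18 with EVI1-WT and -0.15, -0.26 and -0.38 with EVI1-AQA. The EVI1-AQA libraries lay below all empty vector libraries. EVI1-WT overlapped with both, with a single value above the lowest of empty vector and a single value below the highest of EVI1-AQA. Against empty vector, EVI1-WT differed by -0.31 ± 0.15 (SE) (unadjusted limma p 0.0457, adjusted p 0.703) and EVI1-AQA by -0.54 ± 0.15 (unadjusted p 0.0013, adjusted p 0.12). The second was the lowest p of a member in any comparison between 2 groups, and it was negative in each batch (-0.66, -0.53 and -0.43).

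RPS27 values were -1.25, -0.73 and 0.09 with empty vector, -0.10, 0.02 and 1.07 with EVI1-WT and 0.70, 0.41 and 0.80 with EVI1-AQA. Against empty vector, EVI1-WT differed by 0.96 ± 0.44 (SE) (unadjusted limma p 0.0395, adjusted p 0.703) and EVI1-AQA by 1.27 ± 0.44 (unadjusted p 0.00865, adjusted p 0.184), each positive in every batch. With the replicate block, neither RPS27 (unadjusted p 0.0503) nor RPL10 (0.0641) passed for EVI1-WT. RPL10 did not pass there without the 3 libraries at odds either (0.0546). With H2O2, RPS27 differed from empty vector by 0.53 in EVI1-WT and by -0.22 in EVI1-AQA cells, and RPL10 by -0.16 and 0.04, none with an unadjusted p under 0.05.

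Whether the H2O2 response differed between the 4 states was tested with the interaction. At an unadjusted p under 0.05 it gave 2 of 8 members, RPS27 (0.0454) and RPL10 (0.0491), against 11.5% of all rows, and 0 at an adjusted p under 0.05, against 0.259%. With the replicate block it gave 0 at either threshold. For RPS27 the same-batch differences were 0.03, 0.61 and 2.00 in untransfected cells and -0.62, -1.02 and -1.05 in EVI1-AQA cells, so that all 3 pairs went up in one state and down in the other (adjusted interaction p 0.417). In empty vector cells they were 0.89, 1.05 and -0.16, and in EVI1-WT cells 0.57, 0.31 and -0.38. RPL10 went the other way in EVI1-AQA cells, by 0.06, 0.24 and 0.50.

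Across all 8 groups the F-test gave 4 of 8 members at an unadjusted p under 0.05, RPL10, RPL39, RPS27 and RPL36A, against 36.7% of all rows. With the replicate block only RPL10 passed (0.0353), and RPL39 (0.0535), RPS27 (0.0625) and RPL36A (0.0806) did not. At an adjusted p under 0.05 it gave 0, against 18.4%, and the lowest adjusted p was 0.0697, for RPL10. After quantile normalization 1 member, RPL39, was called. Of the 7 steps between neighbours in the order of group means, at most 1 exceeded the gene's spread within groups, in RPL10 and in RPS4X, and there it was the step from untransfected, untreated cells to untransfected cells with H2O2. In the other 6 members no neighbouring groups differed by more than that spread. RPL11 group means ran from -0.11 to 0.08 with a within-group SD of 0.21, and those of RPL22, an RNA-binding protein of the large subunit, ran from -0.12 to 0.20 with an SD of 0.22.

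The members did not vary as a single block over the 24 libraries. Pearson's r between pairs ran from -0.67 to 0.96 with a median of 0.31, and 23 of the 28 were positive. An r of at least 0.6 was found in 17.9% of member pairs and in 1.91% of all pairs of rows on chromosomes 1 and X. All pairs share the same libraries and the centring within batches, so the r values are a description and carry no p.

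RPL5 and RPS4X were the closest pair (r = 0.96, Spearman's rho = 0.96). Within batches r was 0.975, 0.963 and 0.954, and it was 0.95 without the 2 libraries farthest from the median of RPL5. In the whole table RPS4X was the nearest row to RPL5, although the 2 genes lie on different chromosomes and belong to different subunits. The 17 rows labelled as ribosomal protein genes on chromosomes 2 to 22, where the labels look shifted, had r with RPL5 between -0.585 and 0.392. Their median was -0.09. Members other than RPS4X had r with RPL5 from -0.49 (RPS27) to 0.69 (RPL10), which overlaps that range. The value of r therefore does not separate those rows from the members.

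RPL10 belonged loosely to this group, with r = 0.69 with RPL5 (0.74, 0.51 and 0.82 within batches) and 0.62 with RPS4X. A different pair was RPL36A and RPL39, the members that rose after H2O2 (r = 0.64, rho = 0.70, and 0.92, 0.51 and 0.66 within batches). RPL11 had r = 0.61 with RPL36A and 0.60 with RPL22, and the latter dropped to 0.45 without the 2 outermost libraries.

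RPS27 was negative with 3 of the 7 other members. It had r = -0.67 with RPL10 (rho = -0.62), and -0.70, -0.45 and -0.84 within batches. It was also negative with RPL5 (-0.49) and RPS4X (-0.49), although in batch 2 these were 0.08 and 0.06. With the others it was positive, at 0.46 with RPL39, 0.44 with RPL22, 0.17 with RPL11 and 0.01 with RPL36A. The sign of some pairs depended on the batch. RPL5 and RPL22 had r = 0.93 in batch 1, 0.75 in batch 2 and -0.87 in batch 3, the batch with the outlying untransfected library.

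Of rows on chromosomes 1 and X that are not members, those most like the mean of the 8 members over the 24 libraries were TOMM20, a subunit of the mitochondrial import receptor (r = 0.84, rho = 0.74), SLC25A5, an ADP/ATP carrier of mitochondria (0.81, 0.75), RP1-39G22.7 (0.79, 0.77), TCEAL1 (0.78, 0.84) and LAMTOR5, a part of the Ragulator complex on lysosomes (0.77, 0.82). The mean is weighted towards RPS27, whose SD over the libraries of 0.70 is the largest of the 8, whereas that of RPL5 is 0.14.

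Other genes of ribosome production and translation on the same chromosomes put the members in context. Ribosome assembly factors process rRNA and join it to ribosomal proteins. After H2O2, 5 of 19 were called higher and 0 lower, against 8.9% and 7.63% of all rows. With the replicate block 3 and 0 were called, against 6.62% and 5.65%. Of the 19 estimates 16 were positive, and the median log2 difference was 0.19. The lowest in p were ISG20L2, an exonuclease of the nucleolus (0.34 ± 0.08, SE, adjusted limma p 0.00618), UTP14A of the small subunit processome (0.42 ± 0.10, 0.00698), ZNHIT6, which helps to build box C/D snoRNPs (0.30 ± 0.07, 0.00898), and WDR3 (0.20 ± 0.06, 0.0313). The last was not called with the replicate block (adjusted p 0.0606). No assembly factor was called without replicate 1 or without replicate 2, though 15 and 17 of the 19 estimates stayed positive. Without replicate 3 the count of higher calls was 5.

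After transfection, 8 of the 19 assembly factors were called lower and 0 higher, against 10.5% and 10.9% of all rows. With the replicate block 7 and 0 were called, against 7.86% and 8.24%. The median log2 difference was -0.24. The lowest in p were DKC1 (-0.56, adjusted limma p 0.00016) and URB2 (-0.63, 0.00101). Of the 4 genes named for H2O2, WDR3 fell by 0.26 (adjusted p 0.0125). ISG20L2, UTP14A and ZNHIT6 differed by -0.03, -0.24 and -0.15 on the log2 scale and were not called. The count of lower calls was 9 without replicate 1, 2 without replicate 2 and 2 without replicate 3.

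Of the 8 translation factors 1 was called lower after H2O2, EIF4G3, a scaffold of the cap-binding complex, which fell by 0.25 (adjusted p 0.0181), against 7.63% of all rows, and the median was -0.01. The count was 0 with any 1 of the 3 replicates left out. EIF2B3 (-0.22), PABPC4 (0.11) and EIF3I (0.08) were not called. After transfection 2 of 8 were called lower, against 10.5% of all rows, with a median of -0.22. Of these 2, EIF1AX fell by 0.47 (adjusted limma p 0.000162) and PABPC4, a cytoplasmic poly(A)-binding protein, by 0.23 (adjusted p 0.0151). The count of lower calls was 4 without untransfected, untreated replicate 3, 1 without replicate 1 or replicate 2, and 3, with 1 higher, without replicate 3. Of the 8 mitochondrial ribosomal proteins, which serve a separate ribosome, 1 was called lower after H2O2, against 7.63% of all rows. It was MRPL24, which fell by 0.27 (adjusted p 0.035, and 0.0608 with the replicate block), and the median of the list was 0.02. The count was 0 without the 3 libraries at odds and with any replicate left out. MRPL55 (0.20), MRPS14 (0.11) and MRPL37 (0.10) were not called. After transfection MRPS14 rose by 0.48 (adjusted p 0.00542) and MRPL24 fell by 0.46 (0.00344), and the median was -0.05. This is 1 call of 8 in each direction, against 10.9% higher and 10.5% lower of all rows. Without replicate 2 neither direction had a call, and without replicate 1 there were 2 higher and 1 lower.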

How the data were processed

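The authors made QuantSeq 3' libraries (FWD kit) from polyadenylated RNA, made BAM files with an Ensembl annotation (build GRCh38) and applied a cut-off on FPKM in Qlucore Omics Explorer. The aligner and the strand setting are not given in the sources used here. The deposited table holds log2 values of 11579 rows, centred per row within each batch. The file does not state the base of the logarithm. It was taken as 2 because differences of a few rows matched ratios in the study's supplementary spreadsheet, which was used for nothing else. Depth is unknown, so there is no counting error or detection limit. Nothing states that replicates are separate cultures, so p-values measure the spread between these samples.

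Samples were grouped by their labels. The means of the 8 groups were fitted to all rows with limma 3.58.1 in R 4.3.3 (16 residual degrees of freedom, 14 with the replicate block), two-sided, with Benjamini-Hochberg adjustment over all rows and a threshold of 0.05. Same-numbered samples share a batch by label. A correlation check of that pairing is void, since the centring fixes it. Alternatives were the replicate block, median centring, quantile normalization, rows on chromosomes 1 and X only, the samples of 2 groups only, and leaving out libraries or replicates. Tested on simulated data centred in the same way, the fit without the block made more false calls than its threshold allows and the fit with the block did not, since the centring uses degrees of freedom that only the block subtracts. Positions come from GENCODE v44, in which 10892 IDs (94.1%) were found. The rest was done in Python 3.11.15 (scipy 1.17.1, pandas 2.3.3, numpy 2.4.6), with figures by matplotlib 3.10.9.

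The members and lists were chosen with earlier results of these data known. Genes named beside the members were up to 4 per list lowest in p for H2O2, the pseudogene rows and the 5 rows most like the mean of the members. For transfection, DKC1, URB2 and EIF1AX were added as the lowest in p of their lists. The row labelled CACNB3 serves only to check labels. Transcript length, the list of short transcripts, likeness between single rows and the omission of untransfected, untreated replicate 3 were added after the values were seen. The transfected gene itself was not analysed here.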

Additional observations from a re-analysis of the deposited data

Results flagged for a closer look

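RPS27 was singled out because H2O2 moved all 3 same-batch pairs up in untransfected cells (0.03, 0.61 and 2.00 on the log2 scale) and all 3 down in EVI1-AQA cells (-0.62, -1.02 and -1.05). The test of the difference in response over the 4 states did not pass adjustment (limma interaction, adjusted p 0.417, and 0.627 with the replicate block). The highest of the 6 differences includes untransfected, untreated replicate 3, whose RPS27 value of -2.17 was the lowest of all 24 libraries, and EVI1-AQA with H2O2 includes replicate 1, which departs from its group in the row labelled CACNB3.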

How the results depend on the processing

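The count of members called after H2O2 stayed at 2 with the replicate block, median centring, quantile normalization, rows on chromosomes 1 and X only, without the 3 libraries at odds in the row labelled CACNB3, and without untransfected, untreated replicate 3. It ranged from 0 to 1 when a replicate was left out. For transfection against none the count of 2 became 0 with the replicate block, 0 after quantile normalization, 0 without those 3 libraries, and 0 to 0 when a replicate or untransfected, untreated replicate 3 was left out. The F-test over 8 groups went from 0 to 1 after quantile normalization. The 12 comparisons between 2 groups and the interaction had no member called in any alternative run. Beyond the 2 calls for transfection, the replicate block changed no call of a member at the adjusted threshold. The causes were not tested. No low-value filter or pseudocount could be varied, since the values are centred logs. The depth of the libraries is unknown.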

Other observations

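Among rows on chromosomes 1 and X, 4 are named as ribosomal protein pseudogenes, RPL5P4, RPL7P9, RPS13P2 and RPS23P8. None was called after H2O2 (log2 differences from -0.17 to 0.0054, adjusted p from 0.52 to 0.985 by limma) or after transfection (-0.43 to 0.27, adjusted p from 0.126 to 0.928). Of these, RPS23P8 was among the 5 rows on the 2 chromosomes most like RPL11 over 24 libraries (r = 0.78, rho = 0.71), while RPL5P4 was not among the 5 most like RPL5. Whether reads were shared between these rows and coding genes was not tested.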
